A study of Mus musculus with 4 samples.

Results

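The genes described here are 10 transcripts that mark blood in a tissue RNA sample: the adult globin genes Hba-a1, Hba-a2, Hbb-b1 and Hbb-b2, the red cell enzyme gene Alas2, and the platelet genes Pf4, Ppbp, Gp9, Itga2b and Gp1bb. They were chosen by name, and each has its own row among the 24421 of the deposited gene table. The data are 4 polyA RNA-seq libraries from C57BL/6 mice of 8 weeks, in 2 groups by genotype. The Usp25+/+ group is mice WT-139 and WT-140, and the Usp25-/- group, mice KO-826 and KO-850, lacks the ubiquitin-specific protease gene Usp25; the labels name no promoter, Cre or tissue limit for this loss. All 4 had been given dextran sulfate sodium (DSS), an agent that injures the gut lining, at 2.5% for 5 days and then normal water for 2 days. There was no mouse without DSS. The labels name the tissue as colon, taken near the anus, opened and washed with PBS before lysis. Levels are FPKM, that is fragments scaled to transcript length and to mapped fragments, and the depth behind them is unknown.

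Hemoglobin carries oxygen in red cells and is built from alpha-globin and beta-globin chains, each around a heme group. Red cell precursors and young red cells hold large amounts of globin mRNA, and Alas2 encodes the enzyme that starts heme synthesis in that lineage. Platelets are shed by megakaryocytes and keep some of their mRNA. Pf4 and Ppbp encode chemokines stored in platelet granules, Gp9 and Gp1bb encode chains of the receptor complex that binds von Willebrand factor, and Itga2b encodes the integrin chain that forms the fibrinogen receptor with the product of Itgb3. Macrophages can also express Pf4, and other cells than platelets can express Ppbp. In inflamed gut, bleeding and platelet-leukocyte clumps are part of the injury that DSS is known for.

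The libraries had features that touch every value below. Usp25 followed the genotype labels, with 38.5 and 16.6 FPKM in mice WT-139 and WT-140 against 2.65 and 1.71 FPKM in mice KO-826 and KO-850. Mouse WT-139 stood apart, with a correlation of 0.876 to 0.890 with the others over 12103 genes, whereas those 3 correlated with each other at 0.933 to 0.968. The summed FPKM of 17 neutrophil genes was 49920 in that mouse and 969 to 2519 in the others. Of 13 colon wall genes, 9 stayed below 1 FPKM in every mouse, among them the mucin gene Muc2 (at most 0.193 FPKM), while the surfactant gene Sftpc of lung epithelium stood at 339 to 2596 FPKM. The tissue label is therefore used here only as a label.

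Sequence bears first on what the globin rows can tell apart. Hba-a1 and Hba-a2 lie on the plus strand of chromosome 11 (mm9 build, 32183511 to 32184465 and 32196489 to 32197301). Hbb-b1 and Hbb-b2 lie on the minus strand of chromosome 7 (110975048 to 110976610 and 110961038 to 110962510). In the Gencode transcripts of this build each pair has the same coding length, 429 bases for the alpha pair and 444 bases for the beta pair, and differs at 1 base (99.8% identity). The differences are C381T from Hba-a1 to Hba-a2 and C417T from Hbb-b1 to Hbb-b2, counted from the first base of the start codon, and 0 residues of the proteins differ. The longest identical coding run is 380 bases in the alpha pair and 416 bases in the beta pair. The stretches around both positions are shown because they hold the only coding letters that separate the members of a pair. The differing base is in capitals, and the stretch runs from coding base 334 to 423 for alpha-globin and from 355 to 444 for beta-globin.
Hba-a1: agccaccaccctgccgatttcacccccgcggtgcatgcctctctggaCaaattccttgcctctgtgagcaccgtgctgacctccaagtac
Hba-a2: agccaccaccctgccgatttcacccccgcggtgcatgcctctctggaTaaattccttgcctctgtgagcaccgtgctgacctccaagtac
Hbb-b1: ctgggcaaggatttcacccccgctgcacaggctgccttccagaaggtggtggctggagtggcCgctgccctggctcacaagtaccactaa
Hbb-b2: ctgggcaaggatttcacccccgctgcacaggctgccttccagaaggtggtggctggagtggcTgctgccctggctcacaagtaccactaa

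Start regions were compared where both entries of a pair were present. RefSeq promoter entries (GRCm38.p6 build) were matched by symbol for 8 of the 10 members, all but Hbb-b1 and Hbb-b2. The upstream 250 bases of Hba-a1 and Hba-a2 share an unbroken run of 247 bases, so this pair is nearly alike there too. Pf4 and Ppbp, which are neighbours, share no run longer than 8 bases. Of these regions, 3 are shown because they stand in front of the members with the highest levels. Capitals mark the letters GATAA, which factors of the GATA family bind, the box TATAAA, the box with letters CCAAT and, as the last motif searched, CACCC. Each was searched on both strands. In Hba-a2 these are 1 GATAA, 1 CCAAT and 2 CACCC, in Pf4 2 CCAAT, and in Ppbp 2 TATAAA. No GATAA lies in this window of Pf4 or Ppbp. Among 32851 promoter windows of the same length, 22.6% hold GATAA, 12.4% TATAAA, 33.9% CCAAT and 52.0% CACCC, so these matches describe the letters alone. The regions are chr11:32296242-32296491, chr5:90772185-90772434 and chr5:90768268-90768517, all on the plus strand.
Hba-a2: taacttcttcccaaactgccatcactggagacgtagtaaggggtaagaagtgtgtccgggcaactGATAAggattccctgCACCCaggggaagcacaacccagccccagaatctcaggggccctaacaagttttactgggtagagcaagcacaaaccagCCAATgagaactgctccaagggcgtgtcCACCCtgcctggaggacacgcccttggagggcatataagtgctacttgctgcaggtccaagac
Pf4: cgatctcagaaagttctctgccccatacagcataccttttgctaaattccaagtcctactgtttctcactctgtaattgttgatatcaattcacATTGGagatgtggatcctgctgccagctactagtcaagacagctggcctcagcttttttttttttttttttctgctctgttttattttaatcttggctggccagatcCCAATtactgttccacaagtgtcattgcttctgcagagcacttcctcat
Ppbp: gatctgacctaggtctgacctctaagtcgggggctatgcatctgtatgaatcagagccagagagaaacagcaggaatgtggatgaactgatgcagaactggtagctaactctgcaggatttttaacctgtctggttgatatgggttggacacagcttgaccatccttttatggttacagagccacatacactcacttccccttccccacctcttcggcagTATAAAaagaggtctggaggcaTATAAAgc

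Only 5 of the 10 members were high enough to test. A gene was tested when it reached 1 FPKM in at least 2 mice, which 12103 of 24394 genes with usable symbols did (49.6%). Hba-a2, Hbb-b1, Hbb-b2, Pf4 and Ppbp passed, while Hba-a1, Alas2, Gp9, Itga2b and Gp1bb stayed below 1 FPKM in every mouse. The largest value of any member was 24.4 FPKM, for Pf4 in mouse KO-826. Between 80.1% and 88.9% of all genes had the same or a lower level than Pf4 in the same mouse. Of the common genes, Actb, which encodes beta-actin, stood far above the members, at 1464 to 2345 FPKM, while Tbp, a basal transcription factor gene at 5.26 to 10.6 FPKM, lay below Pf4 in each mouse.

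**Figure D1:**
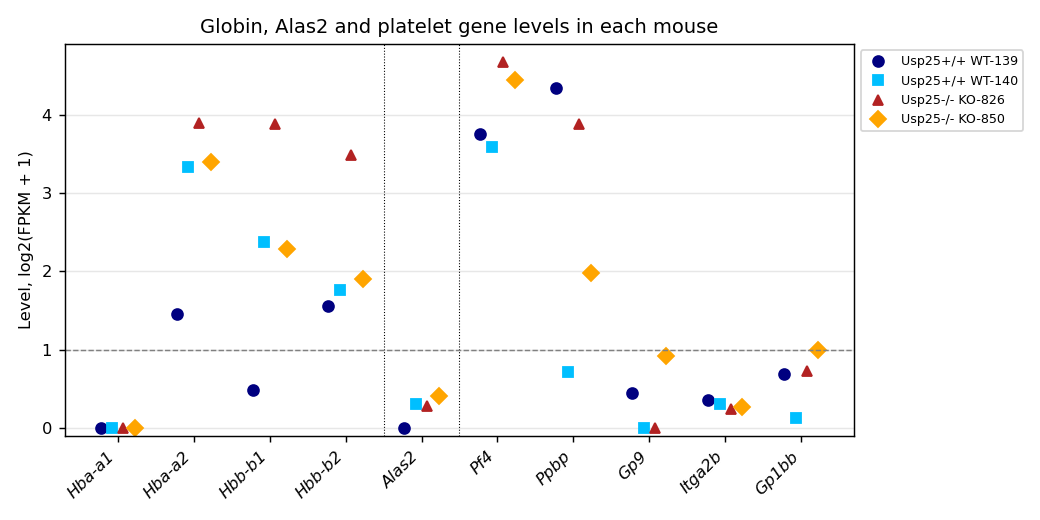
The 10 genes along the horizontal axis and their log2(FPKM + 1) level on the vertical axis, a point being 1 mouse. The dashed line is 1 FPKM, above which lie all 4 points of Hba-a2, Hbb-b2 and Pf4, 3 of 4 points of Hbb-b1 and Ppbp, and no point of the other 5 genes.

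Alpha-globin signal was carried by a single row. Hba-a1 was listed at 0 in all 4 mice, as were 10.8% of all genes. Hba-a2 stood at 1.75 and 9.08 FPKM in mice WT-139 and WT-140 and at 13.9 and 9.56 FPKM in mice KO-826 and KO-850. Mouse WT-139 was low and the other 3 were close to each other, so that the genotypes did not overlap by a margin of 9.56 against 9.08 FPKM. Between 56.7% (mouse WT-139) and 82.9% (mouse KO-826) of all genes had the same or a lower level. Since the pair differs at a single coding base, Hba-a1 at 0 does not show that the first copy was silent, and the Hba-a2 row may hold fragments of both.

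The mean of Hba-a2 was 5.41 ± 5.18 FPKM in Usp25+/+ and 11.7 ± 3.04 FPKM in Usp25-/- mice (SD, n = 2). On the log2(FPKM + 1) scale used for all tests, which understates changes of low genes, the difference was 1.25 ± 0.66 (SE), with a limma Benjamini-Hochberg adjusted p of 0.968. Leaving out 1 mouse gave 0.31 without mouse WT-139, 2.19 without mouse WT-140, 1.00 without mouse KO-826 and 1.50 without mouse KO-850.

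Beta-globin was highest in mouse KO-826. Hbb-b1 stood at 0.396 and 4.16 FPKM in mice WT-139 and WT-140 and at 13.7 and 3.87 FPKM in mice KO-826 and KO-850. The genotypes overlapped, since mouse KO-850 lay below mouse WT-140. Hbb-b2 had 1.94 and 2.40 FPKM against 10.2 and 2.73 FPKM. Here both Usp25-/- mice lay above both Usp25+/+ mice, but 3 of the 4 mice were within 1 FPKM of each other and only mouse KO-826 was far off.

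The log2 difference was 1.66 ± 0.81 for Hbb-b1 and 1.03 ± 0.57 for Hbb-b2 (SE, limma adjusted p = 0.968 for both). For Hbb-b1 it was 0.71 without mouse WT-139 and 0.86 without mouse KO-826, but 2.60 without mouse WT-140 and 2.45 without mouse KO-850. For Hbb-b2 it was 0.24 without mouse KO-826 and 1.82 without mouse KO-850, with 0.92 and 1.13 without mice WT-139 and WT-140. The means were 2.28 ± 2.66 against 8.79 ± 6.96 FPKM for Hbb-b1 and 2.17 ± 0.328 against 6.44 ± 5.25 FPKM for Hbb-b2 (SD, n = 2).

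The table holds a second pair of adult beta-globin rows, Hbb-bs and Hbb-bt, and it was filled in mouse WT-139 alone. Hbb-bs stood at 2.42 FPKM and Hbb-bt at 0.0350 FPKM in that mouse, and both were listed at 0 in the other 3. Mouse WT-139 had fewer genes at 0 in general, 3862 against 7175 to 8813 in the others, and the part of this in the filled rows was not tested. These 4 names share their place in the genome. The RefSeq start region of Hbb-bs, 300 bases long, was found unchanged in chromosome 7 of the mm9 build, where its start site (110976442) falls inside the Gencode gene Hbb-b1. That of Hbb-bt (start site 110962437) falls inside Hbb-b2. Which gene models the authors counted on is not given in the sources used here, so the split of beta-globin fragments over the 4 rows is uncertain.

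Adding the rows narrows the gap between the mice. Hbb-b1 with Hbb-b2 summed to 2.34 and 6.57 FPKM in mice WT-139 and WT-140 and to 23.9 and 6.60 FPKM in mice KO-826 and KO-850, a 10.2-fold span from the lowest to the highest mouse. With Hbb-bs and Hbb-bt the sum for mouse WT-139 became 4.79 FPKM and the span 4.98-fold. Mice WT-139, WT-140 and KO-850 then lay between 4.79 and 6.60 FPKM, and mouse KO-826 stood alone at 23.9 FPKM. The ratio of the genotype means was 3.42 before and 2.68 after the addition.

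**Figure D2:**
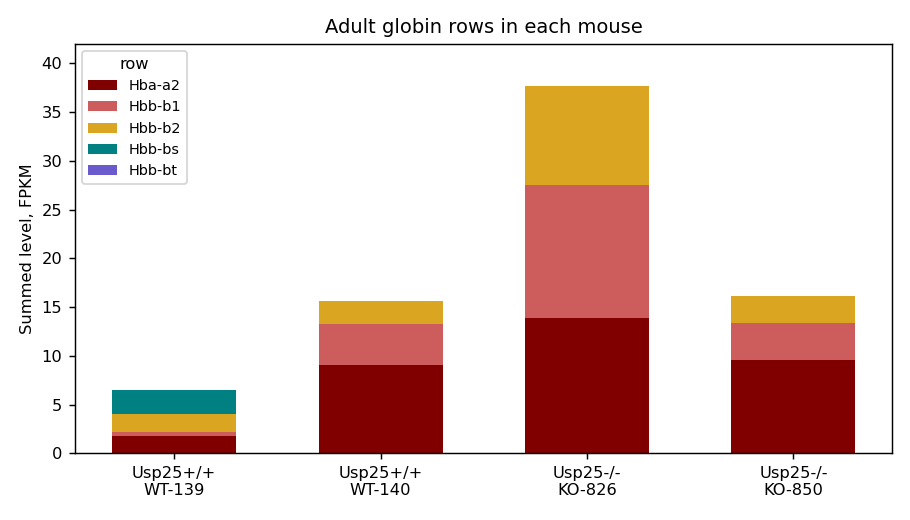
Summed level of the adult globin rows in FPKM on the vertical axis, stacked by row, with 1 bar for each of the 4 mice. Hbb-bs is visible only in mouse WT-139, at 2.42 FPKM, and the beta-globin part of the bar is tallest in mouse KO-826, at 23.9 FPKM.

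The Hba-a2 row and the beta-globin rows did not keep a common order over the mice. Both are levels per length, but how fragments of nearly identical copies were assigned to rows is unknown, so the balance of the chains is uncertain. Hba-a2 was above the sum of the 4 beta-globin rows in mice WT-140 (9.08 against 6.57 FPKM) and KO-850 (9.56 against 6.60 FPKM) and below it in mice WT-139 (1.75 against 4.79 FPKM) and KO-826 (13.9 against 23.9 FPKM). Each order was seen in 1 mouse of each genotype.

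The 4 member globins together made up 0.000766% and 0.00287% of all FPKM in mice WT-139 and WT-140, and 0.00668% and 0.00307% in mice KO-826 and KO-850. The mean share was 0.00182% ± 0.00149 in Usp25+/+ and 0.00487% ± 0.00255 in Usp25-/- mice (SD, n = 2), a ratio of 2.68. The log2 ratio of these means was 1.42, and it became 0.76 without mouse WT-139 and 0.76 without mouse KO-826. Without mouse WT-140 it was 2.67. Against 10 housekeeping genes the share ran from 0.0442% to 0.392%. The share is given as a description, with no test; an exact permutation test of 2 mice against 2 cannot go below p = 0.333. In a bulk sample, fewer red cells and less globin mRNA per red cell cannot be told apart.

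Many red cell genes beyond the globins were near 0. Alas2 (chromosome X, 146981918 to 147005181, plus strand) was listed at 0 in mouse WT-139 and stood at 0.235 FPKM in mouse WT-140 and at 0.220 and 0.324 FPKM in mice KO-826 and KO-850. It lies within the span of Apex2 on the other strand, and fragments of both cannot be told apart if strand was not used in counting. The other globin genes were low as well: 5 of 11 in the table, among them the embryonic genes Hbb-y and Hba-x, were listed at 0 in every mouse, and the highest value was 3.03 FPKM for the cytoglobin gene Cygb in mouse WT-140. Among 39 other erythroid genes, 21 stayed below 1 FPKM in all mice. Slc4a1, the anion exchanger of the red cell membrane, did not exceed 0.262 FPKM. Klf1, an erythroid transcription factor, was listed at 0 in each mouse, and Gata1, a transcription factor of red cell and megakaryocyte precursors, reached at most 0.149 FPKM.

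Other genes of the erythroid list were well above the filter. They include Mgst3, a glutathione transferase gene at 38.5 to 164 FPKM, Bnip3l, a mitophagy receptor gene whose means were 68.6 FPKM in Usp25+/+ and 65.7 FPKM in Usp25-/- mice, and Aqp1, a water channel of red cells and endothelium at 40.8 to 109 FPKM. Genes tied more closely to blood, named after their values were seen, were also above 1 FPKM in every mouse. Slc25a37, the mitochondrial iron importer gene, had 42.4 FPKM in mouse WT-139 and 7.31 to 9.98 FPKM in the others, and Nfe2, a transcription factor gene of red cell and megakaryocyte precursors, 22.9 FPKM and 3.59 to 6.82 FPKM. Slc25a37 and Nfe2 were thus highest in the mouse with the high neutrophil sum, where the tested globins were lowest. The part of neutrophils in their levels was not tested. Epor, the erythropoietin receptor gene, was instead lowest in mouse WT-139, at 1.47 FPKM. It had 10.2 FPKM in mouse WT-140 and 5.50 and 4.57 FPKM in mice KO-826 and KO-850. Of 17 tested members of the list, 8 were higher and 9 lower in Usp25-/- mice by mean log2 value, and 0 passed limma's adjusted threshold. The median log2 difference was -0.02, beside 0.03 over all tested genes.

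Heme synthesis outside the red cell lineage was well covered. Alas1, which encodes the first enzyme of the pathway in other tissues, stood at 138 and 129 FPKM in mice WT-139 and WT-140 and at 118 and 104 FPKM in mice KO-826 and KO-850. Fech, whose product inserts iron into the ring, ranged from 11.3 to 14.6 FPKM over both genotypes. Of 8 tested genes 7 were higher and 1, Alas1, was lower in Usp25-/- mice, with a median log2 difference of 0.24 and 0 past the adjusted threshold.

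Genes that handle free hemoglobin and heme ranged widely in level. Hmox1, the inducible enzyme that breaks heme down, stood at 451 and 273 FPKM in mice WT-139 and WT-140 and at 592 and 315 FPKM in mice KO-826 and KO-850. Hp encodes haptoglobin, the carrier of free hemoglobin, and had 1223 FPKM in mouse WT-139 and 126 to 279 FPKM in the other 3. Its high value in mouse WT-139 came with the high neutrophil sum of that mouse, and the part of these cells in it was not tested. The ferritin gene Ftl1 had 6372 and 17883 FPKM against 12717 and 12766 FPKM. At the low end, and named here because their values were low, Hpx, the gene of the heme carrier hemopexin, ranged from 0.121 to 2.03 FPKM and Cd163, the gene of the receptor for haptoglobin with hemoglobin, from 0.487 to 1.01 FPKM. Of 13 tested genes of this list, 7 were higher and 6 lower in Usp25-/- mice, and 0 passed the adjusted threshold. The median log2 difference was 0.10.

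Among the 5 tested members, Pf4 had the difference with the smallest standard error. It lies on the plus strand of chromosome 5 (91201461 to 91202407). It stood at 12.4 and 11.0 FPKM in mice WT-139 and WT-140 and at 24.4 and 20.6 FPKM in mice KO-826 and KO-850. The mice of a genotype were close to each other, and the groups did not overlap. The means were 11.7 ± 0.967 and 22.5 ± 2.66 FPKM (SD, n = 2). The log2 difference was 0.88 ± 0.28 (SE), with an unadjusted limma p of 0.0248 and a Benjamini-Hochberg adjusted p of 0.968. Leaving out each mouse in turn gave 0.77 to 1.00. An unadjusted p under 0.05 was given to 400 of 12103 genes (3.30%).

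Ppbp showed another pattern from its neighbour. It lies 2374 bases before Pf4, on the same strand (91197544 to 91199086). It stood at 19.2 and 0.646 FPKM in mice WT-139 and WT-140 and at 13.8 and 2.95 FPKM in mice KO-826 and KO-850. Each genotype held 1 high and 1 low mouse, 29.6-fold apart at the extremes, so the groups overlapped in full. The log2 difference was 0.41 ± 1.29 (SE, limma adjusted p = 0.984). It turned to -1.40 without mouse WT-140 and to -0.54 without mouse KO-826. The mean FPKM was lower in Usp25-/- mice, 8.35 ± 7.64 against 9.90 ± 13.1 (SD, n = 2), while the mean log2 value was higher.

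Pf4 and Ppbp sit in a cluster of chemokine genes, and the genes within 50 kb were looked up by position after the values of Ppbp had been seen. Cxcl5, which encodes a neutrophil attractant, stood at 60.7 and 1.59 FPKM in mice WT-139 and WT-140 and at 20.7 and 9.30 FPKM in mice KO-826 and KO-850. Cxcl3, another neutrophil attractant, had 819 and 15.5 FPKM against 106 and 30.2 FPKM. Both have the order of Ppbp, from mouse WT-139 down to KO-826, KO-850 and WT-140, an order held by 7.01% of the tested genes. Pf4 lies between Ppbp and Cxcl3 on the map and did not have it. Cxcl15, an epithelial chemokine known from lung, had 43.3 and 62.8 FPKM against 87.5 and 109 FPKM and did not have it either. As for Pf4, its groups did not overlap. The neutrophil sum followed the order of Ppbp too, at 49920, 2519, 1517 and 969 FPKM in mice WT-139, KO-826, KO-850 and WT-140. The part of neutrophils in the level of Ppbp was not tested.

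**Figure D3:**
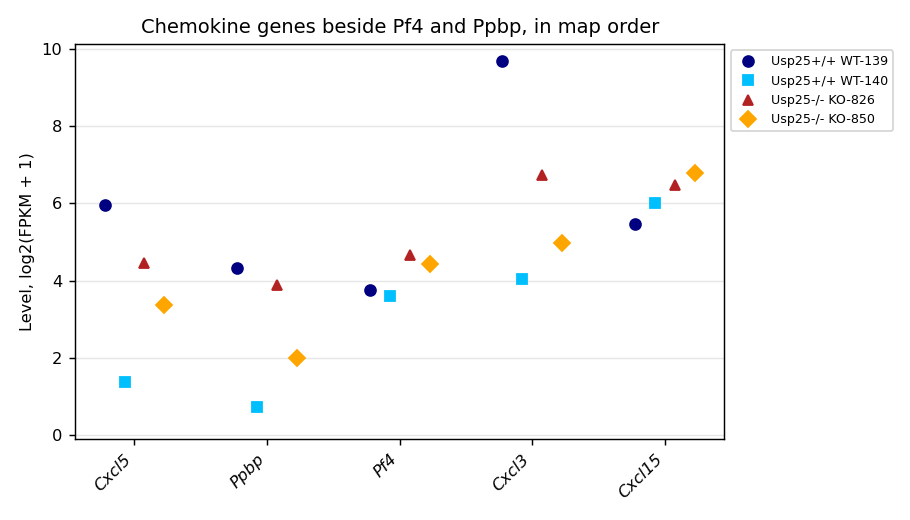
Levels of Ppbp, Pf4 and the chemokine genes beside them, in map order along the horizontal axis. The vertical axis is log2(FPKM + 1), a point being 1 mouse. Cxcl5, Ppbp and Cxcl3 run from mouse WT-139 at the top to mouse WT-140 at the bottom, whereas the genotypes do not overlap for Pf4 (11.0 to 12.4 against 20.6 to 24.4 FPKM) or for Cxcl15 (43.3 to 62.8 against 87.5 to 109 FPKM).

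The platelet receptor genes were too low to test. Gp9 (chromosome 6, 87728130 to 87729756, plus strand) had 0.371 FPKM in mouse WT-139 and 0.886 FPKM in mouse KO-850, and it was listed at 0 in mice WT-140 and KO-826. Itga2b (chromosome 11, 102314611 to 102331436, minus strand) stood at 0.285 and 0.238 FPKM in mice WT-139 and WT-140 and at 0.185 and 0.210 FPKM in mice KO-826 and KO-850. Gp1bb (chromosome 16, 18620412 to 18622496, minus strand) had 0.610 and 0.0926 FPKM against 0.654 and 0.993 FPKM. The groups did not overlap for Itga2b, with lower values in Usp25-/-, and for Gp1bb, with higher ones. Of the tested genes, 14.7% had both Usp25-/- mice below both Usp25+/+ mice and 19.0% had them above. Neither Itga2b nor Gp1bb is among the tested genes, and the shares for genes at their level were not counted. At such levels the number of fragments behind a value may be small.

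Gp1bb has a further limit. In the Gencode models 593 of its 1881 exon bases are shared with exons of Sept5, a gene on the same strand, so that its low level may hold fragments of either gene. Sept5 has no row under that symbol, and the 27 rows with symbols that read as dates were not used here.

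The other defining genes of platelets ran from near 0 to 42.8 FPKM. Gp1ba, the partner chain of Gp1bb, did not exceed 0.785 FPKM. Gp5 reached 0.343 FPKM and Gp6, the platelet collagen receptor, 1.04 FPKM. Tubb1, the platelet tubulin gene, and Treml1, a granule receptor gene, did not exceed 1.19 and 1.37 FPKM. Itgb3, the partner of Itga2b in platelets and widely expressed, stood at 4.57 and 1.64 FPKM in mice WT-139 and WT-140 and at 7.32 and 1.98 FPKM in mice KO-826 and KO-850. Clec1b, which encodes the platelet receptor CLEC-2, stood higher, at 6.35 and 42.8 FPKM against 26.8 and 29.0 FPKM. It was lowest in mouse WT-139 and highest in mouse WT-140, unlike both Pf4 and Ppbp. P2ry12, a platelet ADP receptor gene chosen after its values were seen, stood at 9.005 and 8.40 FPKM in mice WT-139 and WT-140 and at 3.65 and 4.63 FPKM in mice KO-826 and KO-850. Its groups did not overlap, in the direction opposite to Pf4. The log2 difference was -0.92 ± 0.29 (SE), with an unadjusted limma p of 0.0222 and a Benjamini-Hochberg adjusted p of 0.968. Pdgfb, likewise chosen after its values were seen, had 4.31 and 6.58 FPKM against 11.7 and 11.1 FPKM, in the direction of Pf4. Both genes belong to a longer platelet list with 28 tested genes. Of these, 3 had both Usp25-/- mice above both Usp25+/+ mice and 3 had them below. Over all tested genes these shares were 19.0% and 14.7%.

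**Figure D4:**
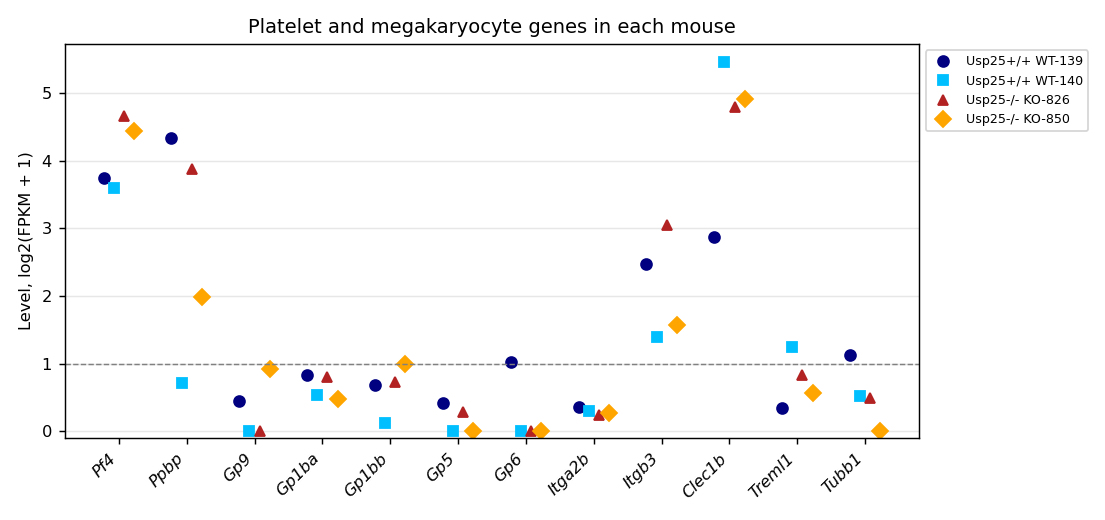
Level of 12 platelet and megakaryocyte genes, log2(FPKM + 1) on the vertical axis, a point being 1 mouse and the dashed line 1 FPKM. Pf4, Itgb3 and Clec1b lie above the line in all 4 mice and Ppbp in 3, and Gp9, Gp1ba, Gp1bb, Gp5 and Itga2b lie below it in all 4.

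The longer list of platelet and megakaryocyte genes had no common direction. Of its 45 genes 12 stayed below 1 FPKM in all mice and 28 were tested. By mean log2 value 12 were higher and 16 lower in Usp25-/- mice, 0 passed limma's adjusted threshold, and the median log2 difference was -0.04. The genes of highest mean were Cd9, Srgn and Plek. Cd9, a tetraspanin gene, stood at 1530 to 2608 FPKM. Srgn, the granule proteoglycan gene of blood cells, had 5368 FPKM in mouse WT-139 and 335 to 790 FPKM in the others, and Thbs1, the thrombospondin gene, had 479 FPKM against 37.4 to 52.6 FPKM. Plek, the pleckstrin gene of platelets and leukocytes, likewise had 639 FPKM in that mouse and 136 to 168 FPKM in the others.

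Markers of other cells that could supply these transcripts were present. The 17 macrophage genes summed to 24177 and 50766 FPKM in mice WT-139 and WT-140 and to 43681 and 41255 FPKM in mice KO-826 and KO-850, with Lyz2 and Chil3 as its leading genes and 0 of 17 genes below 1 FPKM in all mice. The sum over 15 endothelial genes was 164 and 391 FPKM against 153 and 281 FPKM, with Cdh5 at 10.1 to 27.3 FPKM. Neither sum had the order of Pf4 over the mice, an order held by 4.71% of tested genes. Lyz2 alone had 12613 and 38922 FPKM against 31444 and 32571 FPKM, so the order of the macrophage sum is largely that of Lyz2. Of 13 mast cell genes 8 stayed below 1 FPKM in all mice, among them the protease gene Cpa3 (at most 0.396 FPKM). Mcpt1, a protease gene known from mucosal mast cells, had 73.8 and 134 FPKM against 1428 and 592 FPKM. Others of the list went the other way: Hdc had 287 and 13.5 FPKM against 39.0 and 23.5 FPKM. Kit had 5.85 and 5.55 FPKM against 3.98 and 4.92 FPKM. Of the 5 tested mast cell genes, 2 were higher and 3 lower in Usp25-/- mice, with a median log2 difference of -0.05. The part of these cells in the levels of the platelet genes was not tested.

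Between the genotypes, 0 of the 5 tested members passed limma's adjusted threshold of 0.05, and 0 of all 12103 tested genes did (0%). Limma gave 400 genes an unadjusted p under 0.05, and 1 of the members, Pf4. All 5 members had a higher mean log2 value in Usp25-/-, as did 53.6% of tested genes. Both Usp25-/- mice lay above both Usp25+/+ mice for 3 of the 5, Hba-a2, Hbb-b2 and Pf4, and for 19.0% of tested genes. The median log2 difference of the 5 was 1.03, beside 0.03 over all tested genes. These 5 are not independent readings: the beta-globin rows share a locus and their coding sequence, and the members were tested only where they were high enough.

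The mice that made these differences were not the same for each gene. All 3 tested globins were lowest in mouse WT-139 and highest in mouse KO-826, where 39.2% and 25.5% of tested genes had their lowest and highest value. Pf4 was lowest in mouse WT-140. Without mouse WT-139 all 5 members remained higher in Usp25-/- (49.1% of tested genes did), with a median of 0.92. Without mouse WT-140, 4 of 5 were higher (55.9% of tested genes). The Usp25+/+ group was then mouse WT-139 alone, which stood apart from the others, and the median was 1.13. Without mouse KO-826 the median was 0.77, with 4 of 5 higher (55.8% of tested genes), and without mouse KO-850 it was 1.50, with 5 of 5 higher (50.8%). In both cases with 4, the exception was Ppbp.

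**Figure D5:**
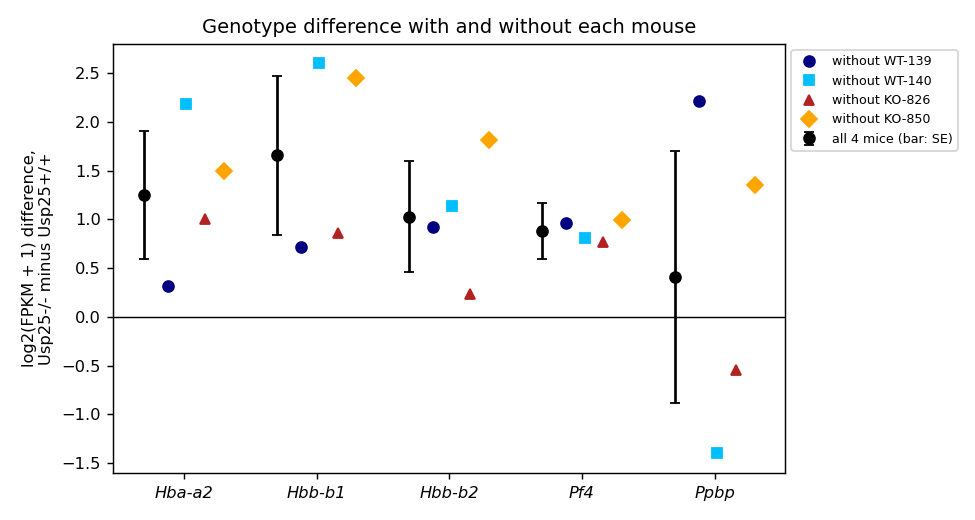
Difference in mean log2(FPKM + 1) between Usp25-/- and Usp25+/+ mice on the vertical axis for the 5 tested genes, with all 4 mice (black, bar: SE) and without each mouse (coloured). Pf4 stays between 0.77 and 1.00, while Ppbp runs from -1.40 to 2.21.

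Genes with a pattern like each tested member were sought by the root mean square difference over the 4 mice between centred log2(FPKM + 1) values, and these are descriptions of 4 points. For Hba-a2 they were Npdc1 (0.07), Mcfd2 (0.12) and Snhg20 (0.13), and for Hbb-b1 Ckb (0.16), Nradd (0.25) and Cox7a1 (0.27). For Hbb-b2 they were Cda (0.03), Spire2 (0.04) and Emp1 (0.06), and for Pf4 Cbx3 (0.03), Tyro3 (0.04) and Tmtc4 (0.06). For Ppbp they were Plac8 (0.17), Inhba (0.29) and Egln3 (0.40). No gene of the erythroid or platelet lists was among these 15. Only 17 and 28 genes of those lists were among the 12103 tested, so their absence says nothing about a blood pattern. Genes with predicted, clone or accession symbols and microRNA and snoRNA genes were left out of the search. By the same measure Hba-a2 and Hbb-b1 were 0.44 apart, Hbb-b1 and Hbb-b2 0.67, Pf4 and Hbb-b2 0.50, and Pf4 and Ppbp 1.38. The platelet chemokines were farther from each other than Pf4 was from any tested globin, the farthest of which, Hbb-b1, was 0.95 away. This measure grows with the span of a gene over the mice. In log2(FPKM + 1) that span was 1.08 for Pf4 and 3.61 for Ppbp. These distances therefore do not show that Pf4 followed the globins.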

How the data were processed

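The deposited table gives FPKM values with 1 column for each of the 4 mice, made by the authors. Per the submitters' processing notes, Bowtie 0.12.2 and the build mm9 were used. The tool behind the FPKM values, the gene models, strandedness and filters are not stated in the labels or the file. Over 2487 genes with 1 exon, the commonest product of FPKM and length held 4.04% to 6.48% of values above 0, so whole fragments could not be recovered and depth is unknown.

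The 27 rows with date-like symbols were left out. Values were analysed as log2(FPKM + 1) for genes with at least 1 FPKM in at least 2 mice, by limma 3.58.1 (moderated test with trend, two-sided, R 4.3.3) over all tested genes, with Benjamini-Hochberg adjustment at 0.05 and no block, since no batch or litter is recorded. The p-values reflect the spread of these 4 mice alone. On simulated data with 12103 genes, limma recovered 0%, 2%, 38% and 56% of 50 genes changed 2-fold, 4-fold, 8-fold and 16-fold, with 4 false calls. Python 3.11.15, pandas 2.3.3 and matplotlib 3.10.9 were used for sequences and plots. Gene positions and coding sequences come from Gencode (mm9), start regions from RefSeq.

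The members and lists were chosen with earlier results of these data known. The text names all members, up to 6 genes of highest mean per blood list, up to 4 per list of other cells, and set defining genes; some of these are not reported here. Alternatives covered the pseudocount, filter, scaling, variance model, denominators and leaving out each mouse. Leave-one-out fits kept the genes tested with all mice, and the lone mouse of a genotype is then assumed to vary like the others.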

Additional observations from a re-analysis of the deposited data

How the results depend on the processing

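Pseudocounts of 0.1 and 0.01, both other filters, both scalings and both other variance models kept 0 genes and 0 members called. In each, the 5 members tested in the main fit stayed higher in Usp25-/- mice. Without a filter 9 members were tested, and the direction of those added was not counted. The scalings moved the median of all genes by less than 0.03. Leaving out 1 mouse gave 0 to 92 genes called (92 without mouse WT-140) and 0 members in each case. Each of these fits left 1 mouse in a genotype, and without mouse WT-140 this was mouse WT-139, which stood apart. Leaving out 1 mouse also gave a median log2 difference of the tested members of 0.77 to 1.50. The log2 ratio of the globin share was then 0.76 to 2.67. The difference of Ppbp then ran from -1.40 (without mouse WT-140) to 2.21, and was -0.54 without mouse KO-826. The smaller pseudocount of 0.01 raised the difference of Hbb-b1 from 1.66 to 2.49 and that of Ppbp from 0.41 to 0.85. Adding Hbb-bs and Hbb-bt, chosen after seeing the data, gave a log2 ratio of 1.25 against 1.42. No paired analysis was possible because the labels give the mice no shared number. Depth is unknown, so the precision of values below 1 FPKM cannot be given.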
